A study of Caenorhabditis elegans with 2 samples.

Results

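Divergent promoters are the stretches between a pair of neighbouring genes that are transcribed away from each other, and 754 candidate regions for binding of ALR-1 lay in such stretches. They were chosen by position alone, from a list of 12996 candidate regions called on both replicates together (the pooled list). The middle of a region, its point, had to lie within 1000 bp upstream of an annotated protein-coding transcript start on the plus strand. It also had to lie within 1000 bp upstream of such a start of another gene on the minus strand. Of 764 regions that met this rule, 10 overlapped a tRNA, rRNA, snRNA or snoRNA gene and were left out, and the remaining 754 made up 5.80% of the pooled list. They stood beside 719 gene pairs, of which 684 had 1 region and 35 had 2, and beside 1426 genes in all.

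The regions come from ChIP-seq, the sequencing of DNA pulled down with a protein, here eGFP-tagged ALR-1 in whole larvae of Caenorhabditis elegans. Both samples were mixed-sex L2 larvae of the strain OP200, with the genotype unc-119(ed3) III; wgIs200, and formed 1 group of 2 biological replicates. The tagged alr-1 is carried on the transgene insertion wgIs200 in animals that also carry the unc-119 mutation, and all values come from this 1 strain. A control library was used by the authors in making the lists and was not analysed here. Because whole larvae were used, regions cannot be assigned to a cell type. The authors' list of called peaks held 103 and used the irreproducible discovery rate (IDR), which scores how evenly regions rank in replicates. These were the strongest pooled regions, and the remaining candidates are not called peaks. Regions were 320 bp wide in the pooled list. The lists of replicates 1 and 2 had 5071 and 7568 regions, with widths of 390 and 304 bp. Read depth is unknown. Signal is the authors' own value for each region, in units of their caller, and was compared within 1 list only.

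ALR-1 is a paired-like homeodomain transcription factor related to Drosophila Aristaless, known for its part in the development of sensory neurons and motor neurons. Homeodomain proteins commonly recognise short A/T-rich sequences with TAAT in the core. In a divergent pair, 1 short stretch of DNA precedes both genes, so a protein bound there can be near both starts, and the position of a region does not tell which gene, if any, it acts on. Many C. elegans transcripts are trimmed by trans-splicing, and an annotated start can therefore lie downstream of the position where transcription begins.

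The sequences at the 6 strongest regions are shown because these had the highest signal between divergent starts. They are from the genome build WBcel235 (ce11), plus strand, 5′ to 3′. The first 5 span 100 bases on each side of the point: chrII:6951452-6951652 for ceh-38/malt-1, chrIV:4749963-4750163 for Y17G9B.5/rpl-20, chrIII:6431857-6432057 for txdc-9/mrps-17, chrII:8329009-8329209 for C26D10.4/hel-1 and chrIV:11593648-11593848 for mig-38/F40F11.3. The sixth is the whole stretch between the start of fbxb-85 on the left and that of hex-3 on the right, chrIII:10848963-10849222. In each pair the plus-strand gene is named first. Capitals mark every match to the 7 motifs searched on either strand, namely TAATTA as a homeodomain core, the repeat GAGAGA, the E-box CACGTG, the word CTGCGTC, the box known as CCAAT, the element TATAAA, and the motif GGGCGG.
ceh-38/malt-1: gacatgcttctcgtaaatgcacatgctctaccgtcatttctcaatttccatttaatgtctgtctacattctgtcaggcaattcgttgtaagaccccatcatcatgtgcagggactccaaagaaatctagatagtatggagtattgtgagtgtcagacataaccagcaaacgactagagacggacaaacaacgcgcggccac
Y17G9B.5/rpl-20: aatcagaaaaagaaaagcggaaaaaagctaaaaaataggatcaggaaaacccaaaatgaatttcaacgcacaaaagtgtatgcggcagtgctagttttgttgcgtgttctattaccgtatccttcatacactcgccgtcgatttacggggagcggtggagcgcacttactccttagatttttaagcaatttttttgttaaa
txdc-9/mrps-17: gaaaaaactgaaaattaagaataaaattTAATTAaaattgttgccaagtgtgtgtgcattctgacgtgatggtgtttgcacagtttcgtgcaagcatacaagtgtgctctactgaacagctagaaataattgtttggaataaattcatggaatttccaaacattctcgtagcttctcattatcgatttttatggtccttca
C26D10.4/hel-1: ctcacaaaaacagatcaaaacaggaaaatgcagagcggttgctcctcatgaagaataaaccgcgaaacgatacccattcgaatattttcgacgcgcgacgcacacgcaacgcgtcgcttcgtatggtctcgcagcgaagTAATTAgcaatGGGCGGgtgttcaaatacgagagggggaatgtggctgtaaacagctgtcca
mig-38/F40F11.3: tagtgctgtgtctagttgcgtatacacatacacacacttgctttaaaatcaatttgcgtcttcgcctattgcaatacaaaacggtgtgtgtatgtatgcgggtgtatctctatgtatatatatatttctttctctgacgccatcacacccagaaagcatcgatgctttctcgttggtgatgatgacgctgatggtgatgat
hex-3/fbxb-85: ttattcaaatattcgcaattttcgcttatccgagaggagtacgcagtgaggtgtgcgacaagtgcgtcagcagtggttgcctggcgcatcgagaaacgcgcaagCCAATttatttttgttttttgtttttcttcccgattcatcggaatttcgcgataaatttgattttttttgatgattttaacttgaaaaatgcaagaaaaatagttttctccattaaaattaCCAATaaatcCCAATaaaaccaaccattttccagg

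TAATTA was found at 2 of these 6 places, 72 bases left of the point between txdc-9 and mrps-17 and 39 bases right of it between C26D10.4 and hel-1. The hel-1 stretch also held GGGCGG, 50 bases right of the point. CCAAT occurred 3 times between hex-3 and fbxb-85, at 35, 156 and 166 bases to the right. No capitals appear at ceh-38/malt-1, Y17G9B.5/rpl-20 or mig-38/F40F11.3. GC content was 33.3% at txdc-9/mrps-17 and 49.3% at C26D10.4/hel-1, the lowest and the highest of the first 5 stretches. A match describes the letters and is neither a binding site nor a cause of the signal.

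**Figure D1:**
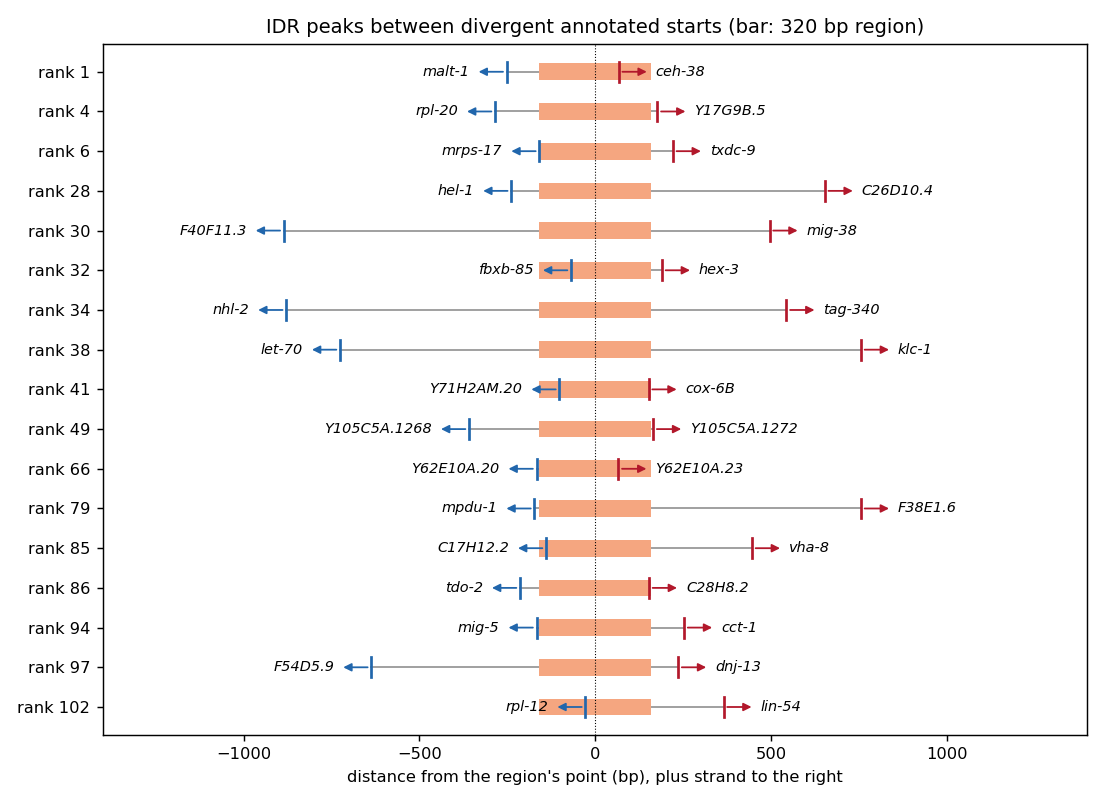
Positions of the annotated starts around the 17 IDR peaks at divergent promoters, with distance from the point of the region in bp on the horizontal axis and regions ordered by pooled rank. Bars are the 320 bp regions, and arrows show the plus-strand (red) and minus-strand (blue) starts. The gap between starts ran from 233 bp at Y62E10A.23/Y62E10A.20 to 1482 bp at klc-1/let-70.

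Among the 754 regions, 17 were IDR peaks (2.25%, exact 95% interval 1.32 to 3.58), where 0.793% of all pooled candidates were. They made up 16.5% of the 103 IDR peaks. The strongest region of the whole pooled list was one of them, at II:6951392-6951711 between ceh-38, a homeobox gene of the ONECUT class, and malt-1, the homologue of the mammalian paracaspase MALT1. Its signal was 49.85 in the pooled list, 14.7 in replicate 1 (rank 9) and 30.9 in replicate 2 (rank 2). The point lay 67 bp upstream of a ceh-38 start and 252 bp upstream of a malt-1 start. An annotated protein-coding gene body also lay over this point. The pair ceh-38/malt-1 was the only divergent pair with a region among the 10 strongest of each replicate.

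The next regions stood beside genes of the ribosome. At IV:4749903-4750222, between Y17G9B.5 and rpl-20, a gene for a protein of the large cytosolic ribosomal subunit, the pooled signal was 41.5 (rank 4). Replicate 1 gave 10.4 (rank 53) and replicate 2 gave 23.8 (rank 10). At III:6431797-6432116, between the thioredoxin-domain gene txdc-9 and mrps-17, for a mitochondrial ribosomal protein, the pooled signal was 36.8 (rank 6), with 6.75 in replicate 1 (rank 269) and 15.9 in replicate 2 (rank 67). The other ribosomal pair was lin-54/rpl-12, at IV:13240519-13240838, where lin-54 encodes a DNA-binding subunit of the DREAM complex. Its pooled signal was 21.3 (rank 102), with 7.26 in replicate 1 (rank 204) and 15.7 in replicate 2 (rank 69). The point was 28 bp from the rpl-12 start and 365 bp from that of lin-54. All 3 had a region in each replicate, and all ranked higher in replicate 2.

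Replicates differed in rank at many of the other IDR peaks. High ranks in replicate 2 alone were seen at C26D10.4/hel-1 (II:8328949-8329268), where hel-1 encodes the DEAD-box helicase homologous to UAP56. The pooled signal was 27.8 (rank 28), replicate 2 gave 23.2 (rank 11), and replicate 1 had no region there. The pair of Y105C5A.1272 and its minus-strand neighbour (IV:15646667-15646986, pooled signal 25.04, rank 49) likewise had no region in replicate 1, against 20.3 in replicate 2 (rank 18). At cct-1/mig-5 (II:8185030-8185349), between genes for a chaperonin subunit and a Dishevelled protein of the Wnt pathway, replicate 2 gave 19.7 (rank 25). Replicate 1 gave 2.65 (rank 3488), and the pooled signal was 21.6 (rank 94). The replicates also stood apart at klc-1/let-70 (IV:11082819-11083138), for a kinesin light chain and a ubiquitin-conjugating enzyme, with 2.92 in replicate 1 (rank 2567) and 17.02 in replicate 2 (rank 53). At mig-38/F40F11.3 (IV:11593588-11593907) the values were 2.94 in replicate 1 (rank 2538) and 12.8 in replicate 2 (rank 165).

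The reverse order was found at tag-340/nhl-2 (III:4899804-4900123), where nhl-2 encodes a TRIM-NHL protein that acts with microRNAs. Replicate 1 gave 14.3 (rank 10), replicate 2 gave 6.65 (rank 1118) and the pooled signal was 26.8 (rank 34). Y62E10A.23/Y62E10A.20 (IV:13386098-13386417, pooled signal 23.25, rank 66) had 10.2 in replicate 1 (rank 62) and 5.73 in replicate 2 (rank 1563). At vha-8/C17H12.2 (IV:6790468-6790787), where vha-8 encodes a subunit of the vacuolar proton pump, replicate 1 gave 9.95 (rank 69) and replicate 2 had no region. All 3 thus stood higher in replicate 1 than in replicate 2, or had a region in replicate 1 alone.

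The remaining 5 IDR peaks had a region in each replicate. The gene cox-6B encodes a subunit of cytochrome c oxidase, and tdo-2 encodes tryptophan 2,3-dioxygenase. At cox-6B/Y71H2AM.20 (III:2785890-2786209) the pooled signal was 26.01 (rank 41), with 7.71 in replicate 1 (rank 158) and 18.1 in replicate 2 (rank 36). At C28H8.2/tdo-2 (III:5920009-5920328) it was 21.8 (rank 86), with 6.39 in replicate 1 (rank 327) and 14.7 in replicate 2 (rank 102). The hexosaminidase gene hex-3 and the F-box gene fbxb-85 (III:10848872-10849191) shared a region with a pooled signal of 27.3 (rank 32), with 4.54 in replicate 1 (rank 908) and 15.7 in replicate 2 (rank 70). F38E1.6/mpdu-1 (V:8359176-8359495, pooled signal 22.4, rank 79) and the pair of the DnaJ chaperone gene dnj-13 with F54D5.9 (II:11545305-11545624, pooled signal 21.5, rank 97) ranked 449 and 325 in replicate 1, with signals of 5.83 and 6.39. In replicate 2 they ranked 2552 and 905, with 4.43 and 7.24, lower than the other 3 pairs there.

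**Figure D2:**
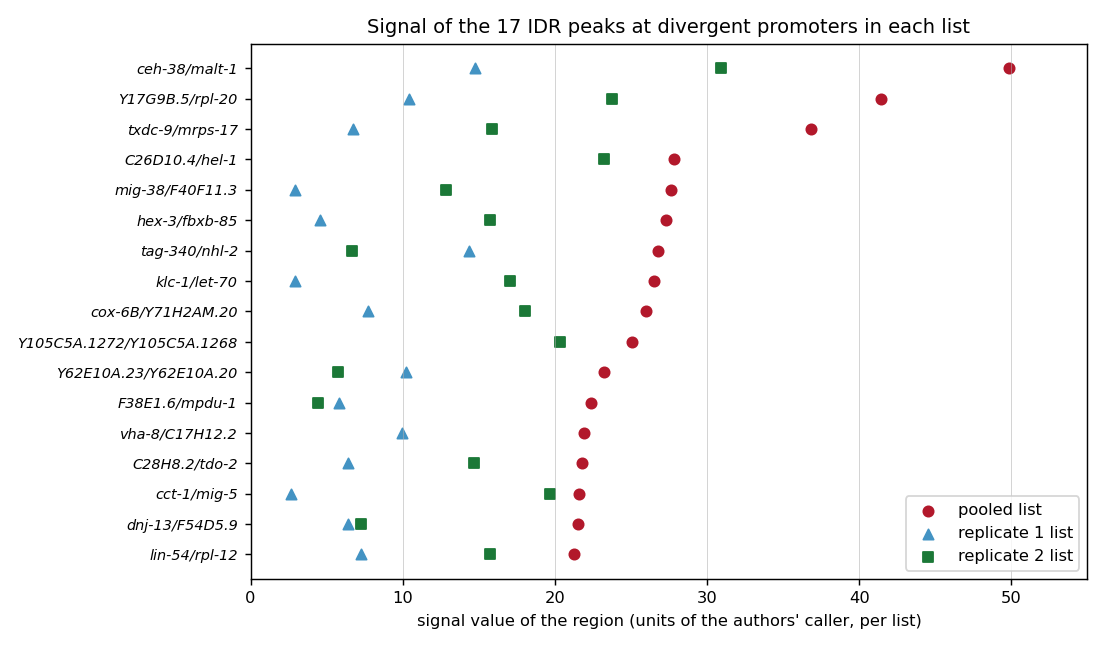
Signal of the 17 IDR peaks at divergent promoters in the pooled list (circles), replicate 1 (triangles) and replicate 2 (squares), in units of the authors' caller, with pairs in order of pooled signal. A missing symbol means that the list had no region there. Scales of the lists are not shared, and only the order within a list can be read.

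Of the 17 IDR peaks, 14 overlapped a region in both replicates, 5 overlapped one of the 103 strongest regions of replicate 1, and 11 one of the 103 strongest of replicate 2. The 17 pooled signals had a median of 26.01, set beside 24.6 for the other IDR peaks. Chromosome IV held 7 of them, III held 5, II held 4 and V held 1. Chromosomes I and X held none, and they held 15 and 28 of all IDR peaks. Of the 754 divergent promoter regions they held 165 and 46. With 2.25% of the 754 being IDR peaks, the absence on X rests on few regions. No region at a divergent promoter stood beside alr-1 itself. This covers divergent promoters only, and whether alr-1 belongs to a divergent pair is not given here. The strongest regions below the IDR peaks included hsp-90/C47E8.4, beside the gene of the HSP90 chaperone, with a signal of 20.7 and rank 111. That pair was named after its value was seen.

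Over all 754 regions the signal had a median of 5.47, with quartiles of 3.75 and 9.07. The 3858 regions upstream of a start on 1 strand only, called single-gene promoter regions here, had a median of 4.31, and all 12996 candidates had 3.89. As a percentile of the pooled list, where 100 is the strongest region, the median was 70.3 at divergent promoters (exact 95% interval 67.3 to 73.3). It was 56.3 at single-gene promoters (54.8 to 57.7), 52.6 in other intergenic sequence (3343 regions) and 39.8 in other parts of gene bodies (4786 regions). Regions over small RNA genes, 255 in number, had a median of 69.9, which was close to the value at divergent promoters. Intervals treat regions as independent and cover counting error only. No test was run on differences between classes, since regions of 1 list are not replicates.

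**Figure D3:**
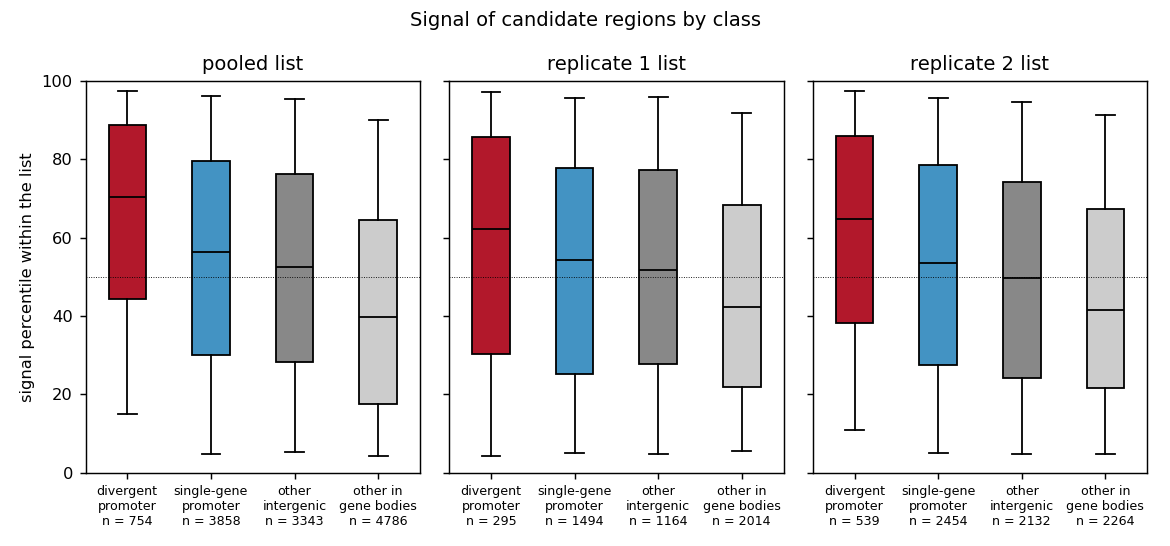
Signal percentile of candidate regions within the pooled list, replicate 1 and replicate 2, by class of position. Boxes show the quartiles and the median, whiskers leave out the lowest and the highest 5% of the class, and the dotted line marks 50. Of the 4 classes drawn, divergent promoter regions had the highest median in each list, with 70.3, 62.3 and 64.8.

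A larger share of divergent promoter regions than of the other classes was among the strongest regions. Among divergent promoter regions, 67 of 754 (8.89%, 6.95 to 11.2) were in the 500 strongest of the pooled list, with 4.95% of single-gene promoter regions (4.29 to 5.68), 6.28% of small RNA gene regions (3.63 to 9.99) and 3.85% of all candidates. IDR peaks were 2.25% of divergent promoter regions, 0.933% of single-gene promoter regions (0.654 to 1.29), 0.838% of other intergenic regions and 0.418% of other regions in gene bodies. Read by rank, divergent promoters held 16.5% of the regions ranked 1 to 103, 12.6% of the following ranks to 500, 180 of the 1500 regions ranked 501 to 2000, 6.60% of ranks 2001 to 5000 and 3.86% of the rest. The last bin still held 309 of the 754 regions, so weak candidates formed a large share of them. The −log10 q-value was at the upper limit of the list, 2.90, for 49 divergent promoter regions (6.50%) and for 3.09% of all candidates.

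Each replicate alone gave divergent promoter regions a higher median than single-gene promoter regions. Applied to replicate 1, the rule found 295 regions with a median percentile of 62.3 (57.6 to 70.4), with 54.2 at single-gene promoters. Replicate 2 gave 539 regions with a median of 64.8 (60.7 to 67.1), with 53.7 at single-gene promoters. Among the 103 strongest regions of replicate 1 were 11 at divergent promoters (3.73% of them) and 36 at single-gene promoters (2.41%), where 2.03% of the whole list is in that set. In replicate 2 the counts were 15 (2.78%) and 44 (1.79%), with 1.36% of the whole list. The region between ceh-38 and malt-1 led the divergent promoters in both. Other pairs differed between the lists. A region between cnnm-2 and R04E5.9 had rank 46 in replicate 1 and a best pooled rank of 2217, and one between ucr-1 and ddx-15 had rank 29 in replicate 2 and a best pooled rank of 506. Both were named after their values were seen.

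Overlap with the replicate lists was counted from 1 bp. A region of replicate 1 overlapped 286 of the 754 (37.9%), where 30.9% of all candidates had one. A region of replicate 2 overlapped 487 (64.6%), where 48.6% of all candidates had one. Both replicates had a region at 178 (23.6%, 20.6 to 26.8), with 15.7% at single-gene promoters (14.6 to 16.9) and 13.3% of all candidates. Small RNA gene regions were close to divergent promoters, with 36.9% in replicate 1, 65.9% in replicate 2 and 22.75% in both (17.75 to 28.4). Of the other divergent promoter regions, 108 were found in replicate 1 only, 309 in replicate 2 only and 159 in neither. Part of this overlap is built in, since the pooled list was called on the same reads. Within bins of rank the order of the classes varied. Both replicates had a region at 14 of 17 divergent and 26 of 36 single-gene promoter regions among the IDR peaks (82.4% and 72.2%). They had one at 32 of 50 divergent and 101 of 155 single-gene promoter regions ranked below the IDR peaks but within the first 500, at 46.7% and 42.4% of those ranked 501 to 2000, at 19.7% and 16.9% of those ranked 2001 to 5000, and at 2.91% and 3.72% of those ranked beyond 5000. Across the 178 regions with both, the signals of the replicates had a Spearman's rho of 0.12, and across all 1724 such candidates it was 0.23. These describe regions that share the same libraries.

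The starts of a pair lay a median of 582 bp apart (quartiles 375 and 903, range 36 to 1943 bp). The point was closer to the plus-strand start in 364 regions, closer to the minus-strand start in 389 and equally far in 1. The nearer of the paired starts was a median of 147 bp away. The 320 bp region covered both starts in 67 cases (8.89%), a single start in 344 and none in 343. A protein-coding gene body, such as that of another transcript form or an overlapping gene, lay over the point of 132 regions, and 622 were clear of gene bodies. Of the 132, 5 were IDR peaks, at ceh-38/malt-1, C26D10.4/hel-1, mig-38/F40F11.3, cox-6B/Y71H2AM.20 and dnj-13/F54D5.9.

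Signal was higher where the starts lay closer together. The median percentile was 77.2 for gaps up to 300 bp (134 regions), 75.9 for 301 to 600 bp (258), 68.8 for 601 to 1000 bp (230) and 52.0 for wider gaps (132). The share with a region in both replicates was 28.4%, 27.9%, 19.6% and 17.4% in the same order. IDR peaks did not follow it, with 3, 8, 3 and 3 regions. Over the 754 regions the Spearman's rho between gap and signal was -0.17, a weak relation. A narrow gap also brings the point nearer to a start. Gap widths were not compared at equal distance from a start, so the part of distance in this relation was not tested. Divergent and single-gene promoters were compared by distance to the nearest start. For points up to 100 bp from the nearest start the median percentile was 69.5 at divergent and 57.0 at single-gene promoters. It was 77.0 and 63.4 at 101 to 200 bp, 68.4 and 61.2 at 201 to 400 bp, and 57.3 and 49.9 at 401 to 1000 bp. At the edge of the rule, the 51 regions whose farther start lay 908 to 998 bp away had a median signal of 3.899 (2.72 to 18.4), and 48 regions just outside, at 1004 to 1097 bp, had 3.86 (2.57 to 21.6).

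The stretches in reach of the rule covered 1.72 Mb, or 1.71% of the genome. They held 439 regions per Mb, where the stretches upstream of a start on 1 strand held 187 per Mb and the genome as a whole 129.6 per Mb. Of the 3131 divergent gene pairs in reach of the rule, 719 had a region (23.0%, 21.5 to 24.5), so most had none.

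**Figure D4:**
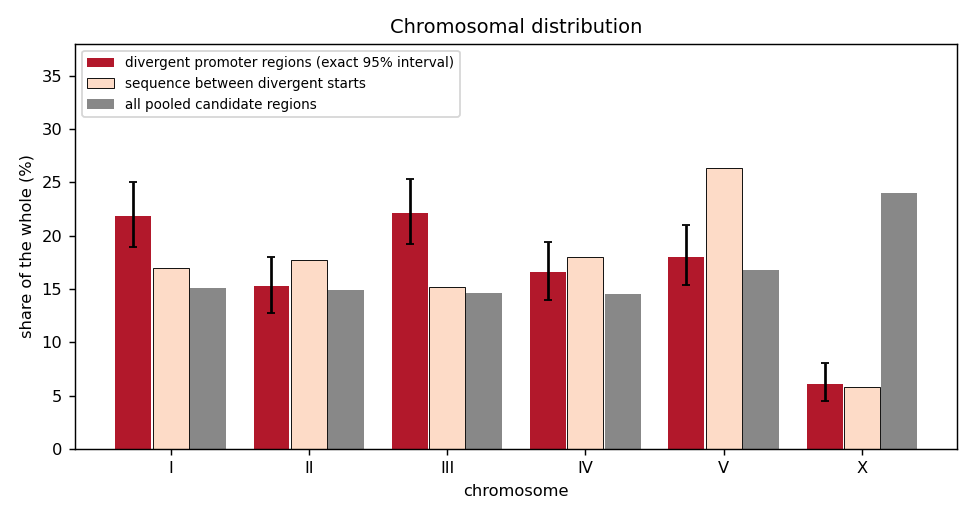
Share of divergent promoter regions (red, with exact 95% intervals), of the sequence between divergent starts (pale) and of all pooled candidates (grey) on each chromosome, in percent. On X the first 2 were 6.10% and 5.77%, and the share of all candidates was 24.0%.

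Chromosome X held 46 of the 754 regions (6.10%, 4.50 to 8.05), although it held 21.9% of single-gene promoter regions and 24.0% of all candidates. Divergent stretches were themselves scarce on X, where they covered 0.559% of the chromosome and gave 5.77% of all such sequence. Of the divergent pairs on X, 20.8% had a region. The autosomes differed among themselves. On chromosome III 31.9% of pairs had a region (27.8 to 36.2) and on chromosome I 29.2% (25.4 to 33.2), whereas 21.7% did on IV, 19.1% on II and 17.2% on V (14.6 to 20.1). On the autosomes alone, an alternative chosen after seeing the data, the median percentile was 70.7 at divergent and 55.7 at single-gene promoters, and IDR peaks were 2.40% and 0.929% of the regions.

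The genes beside the regions were grouped in 15 lists by symbol. In each list the genes that belong to a divergent pair were taken, and the share with a region in the gap was set beside that of all genes in divergent pairs, which was 1426 of 5781 (24.7%, 23.6 to 25.8). Divergent pairs here are those in reach of the rule, so pairs whose starts lay farther apart were not counted. Of all protein-coding genes, 28.9% belonged to a divergent pair. Among genes of cytosolic ribosomal proteins 50 of 81 did (61.7%), and 36 of these 50 (72.0%, 57.5 to 83.8) had a region. The 38 regions concerned had a median percentile of 87.1, and 9 were in the 500 strongest, led by Y17G9B.5/rpl-20 and lin-54/rpl-12. For mitochondrial ribosomal proteins it was 19 of 30 (63.3%, 43.9 to 80.1), led by txdc-9/mrps-17, with a median percentile of 53.7. The lists share neighbours where 1 pair joins them, and pairs are not independent samples.

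**Figure D5:**
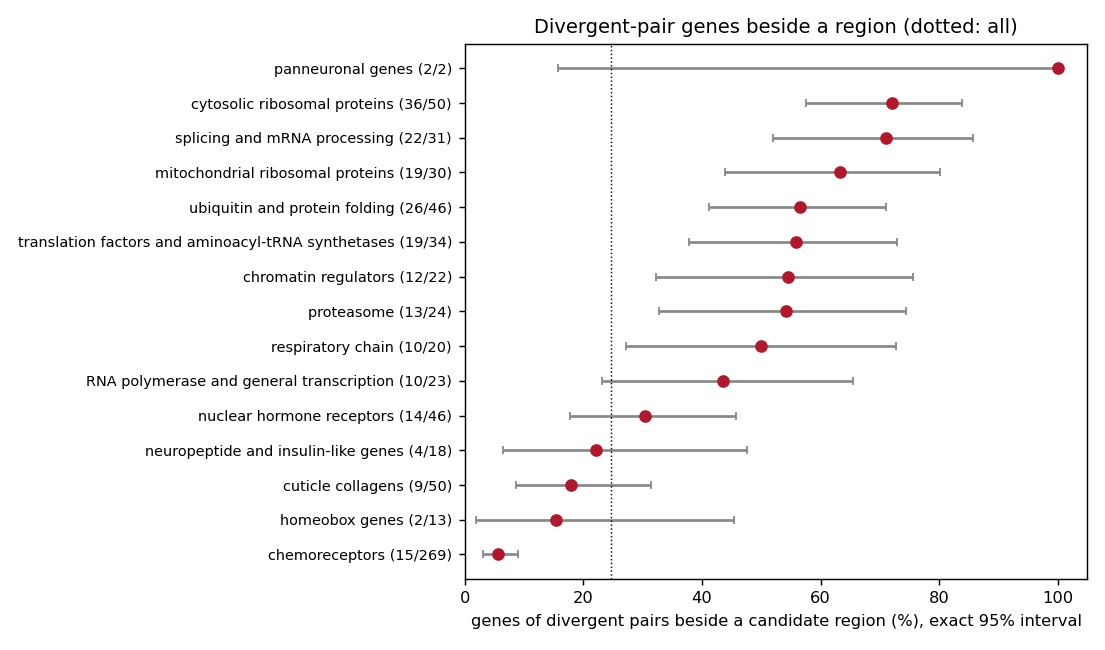
Share of the genes of divergent pairs that stood beside a candidate region, by gene list, in percent with exact 95% intervals and counts in parentheses. The dotted line marks the share over all genes in divergent pairs, 24.7%. Cytosolic ribosomal protein genes (36 of 50) lay to the right of it and chemoreceptor genes (15 of 269) to the left.

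Other lists of general cell functions lay above the share of all genes. Splicing and mRNA processing had 22 of 31 genes beside a region (71.0%, 52.0 to 85.8), but their median percentile of 48.9 was below that of all divergent promoter regions. The strongest was sap-140/C07H6.9, with a signal of 15.0 and rank 368. Ubiquitin and protein folding genes had 26 of 46 (56.5%, 41.1 to 71.1), a median percentile of 82.4 and 2 IDR peaks, at cct-1/mig-5 and dnj-13/F54D5.9. Genes of translation factors and aminoacyl-tRNA synthetases had 19 of 34 (55.9%), led by aco-2/eef-1B.1 at rank 393. Proteasome genes had 13 of 24 (54.2%), led by F57B9.1/rpn-6.1 at rank 428, where rpn-6.1 encodes a subunit of the regulatory particle. Respiratory chain genes had 10 of 20 (interval 27.2% to 72.8%) and a median percentile of 89.8, led by cox-6B/Y71H2AM.20.

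Chromatin regulators had 12 of 22 genes beside a region (54.55%, 32.2 to 75.6). The strongest was set-16/drr-2, with a signal of 16.39 and rank 273, where set-16 encodes a histone methyltransferase of the MLL family. RNA polymerase and general transcription genes had 10 of 23 (43.5%, 23.2 to 65.5), led by uri-1/mdt-18 at rank 796 with a signal of 11.6. Their median percentile was 88.95, although none was in the 500 strongest. That list was made by symbol and takes in F59A3.2/rpa-4 (rank 6394), where rpa-4 is named for replication protein A and not for transcription. Nuclear hormone receptor genes had 14 of 46 (30.4%, 17.7 to 45.8), an interval that took in the share of all genes, and their median percentile was 43.9. The strongest was fbxa-137/nhr-59, at rank 1710 with a signal of 8.38.

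Among gene families with roles in particular cells the shares varied. Of 92 homeobox genes 13 belonged to a divergent pair in reach of the rule (14.1%, set beside 28.9% of all genes). A region stood beside 2 of the 13 (15.4%, 1.92 to 45.5): ceh-38 at rank 1, and ceh-92, named after its value was seen, at rank 9061 with a signal of 3.13. Neuropeptide and insulin-like genes had 4 of 18 (22.2%, 6.41 to 47.6), led by exos-3/nlp-4 at rank 795. Panneuronal genes had only 2 members in divergent pairs, ric-19 and tbb-1, and both had a region. The stronger region was pmlr-1/ric-19, at rank 1949 with a signal of 7.86, and ric-19 encodes a homologue of ICA69 that acts in dense-core vesicle maturation. Cuticle collagen genes had 9 of 50 (18%, 8.58 to 31.4), led by rpl-5/col-38 at rank 220, a pair that also holds a ribosomal protein gene. Chemoreceptor genes had 15 of 269 (5.58%, 3.15 to 9.03), with a median percentile of 24.8. The strongest of these was srr-10/clic-1, at rank 1784 with a signal of 8.20. Of the 754 regions, 22 had both genes in a list, 186 had 1 and 546 had neither. All 15 lists and the share of all genes refer to the same pooled regions, and no list was tested.

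TAATTA lay within 100 bp of the point in 77 of the 754 regions (10.2%, 8.14 to 12.6). It was found in 8.45% of single-gene promoter regions (7.59 to 9.37), 7.90% of other intergenic regions, 7.48% of other regions in gene bodies and 7.97% of all candidates. Among the 17 IDR peaks 3 had a match, at txdc-9/mrps-17, C26D10.4/hel-1 and C28H8.2/tdo-2. The match did not follow signal, with 8.77% of the strongest 251 of the regions, 11.2% of the next 251 and 10.7% of the weakest 252. At the midpoints of divergent gaps, 14.2% of the 719 pairs with a region had TAATTA (11.7 to 16.95), set beside 11.0% of the 2412 pairs with none (9.77 to 12.3) and 11.7% of all 3131. The intervals of pairs with and without a region overlapped only slightly. The 10.2% around the points was no higher than the 11.7% at the midpoints of all divergent gaps. Median GC content was 36.8% around the points and 33.8% at those midpoints. The windows thus differed in base composition, whose part in this comparison was not tested.

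CTGCGTC differed more than TAATTA did between pairs with and without a region. The 7 motifs were chosen with earlier results of these data known, so such differences may depend on that choice, which was not tested. CTGCGTC was found at the midpoint of 42 of the 719 pairs with a region (5.84%, 4.24 to 7.81). It was at 34 of the 2412 pairs with none (1.41%, 0.978 to 1.96) and at 2.43% of all 3131. The repeat GAGAGA was at the midpoint of 15.6% of pairs with a region (13 to 18.4) and 10.8% of pairs with none (9.61 to 12.1). The motif GGGCGG was at 6.40% (4.72 to 8.44) and 3.69% (2.97 to 4.52). Intervals of pairs with and without a region thus did not overlap for these motifs either. They overlapped for the remaining motifs. Around the points CTGCGTC was in 63 of the 754 regions (8.36%, 6.48 to 10.6). Its share was 8.01% of single-gene promoter regions (7.17 to 8.91), 3.11% of other regions in gene bodies and 5.69% of all candidates. The intervals of divergent and single-gene promoter regions overlapped. The share was 11.2% of the strongest 251 regions, 7.97% of the next 251 and 5.95% of the weakest 252, yet 0 of the 17 IDR peaks had it. Around the points GAGAGA was in 21.5% of divergent and 25.8% of single-gene promoter regions, with 22.8% of all candidates. CCAAT was in 30.4%, 33.05% and 34.3% in the same order, TATAAA in 20.95%, 18.4% and 17.1%, GGGCGG in 6.76%, 5.44% and 4.88%, and CACGTG in 3.85%, 4.61% and 4.66%.

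GC content within 100 bp of the point had a median of 36.8% at divergent promoters (36.3 to 37.3), 37.8% at single-gene promoters and 37.8% over all candidates. It was 40.8% at the 17 IDR peaks, 38.8% in the strongest 251 regions and 36.1% in the weakest 252. The Spearman's rho between GC content and signal over the 754 regions was 0.20. Base composition therefore moved with signal, and its part in the results on motifs and classes was not tested.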

How the data were processed

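The authors deposited ChIP-seq region lists for each of 2 biological replicates, for both together (pooled), and an IDR-thresholded list. Per the file notes, candidate regions were called with a control, and the IDR list was derived from the pooled and replicate lists. Names of the aligner and caller, and the IDR cut-off, were not given in the sources used here. In the deposited lists each region has a signal value, whose scale is not stated, and a −log10 q-value. Values of lists made separately are not on a shared scale, so regions were compared by rank and percentile within a list. Read depth is unknown, so precision from depth cannot be given. Sample groups came from the labels, and 1 group allowed no comparison of conditions.

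Only the ce11 lists were used. Starts came from Ensembl release 115 on WBcel235, with 31853 transcripts of 19973 protein-coding genes, and 1107 small RNA genes were used for exclusion. Shares have exact Clopper-Pearson 95% intervals, and medians have exact order-statistic intervals. For the shares of regions, motifs were matched up to 100 bp from the point on both strands. In the whole stretches shown between starts, capitals also mark matches farther from the point. No statistical test was run.

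The regions, gene lists and motifs were chosen with earlier results of these data known. Named pairs were those of the 12 strongest regions, all IDR peaks, regions beside alr-1, the smallest and largest gaps among IDR peaks, and the strongest region of each gene list. Other pairs were named after their values were seen. Alternatives covered other windows, starts, overlaps and thresholds, exclusion of regions, and each replicate alone. The code that applies the rule was checked on simulated positions with known answers. The software was scipy 1.17.1, pandas 2.3.3, numpy 2.4.6 and matplotlib 3.10.9 under Python 3.11.15.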

Additional observations from a re-analysis of the deposited data

How the results depend on the processing

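Of 89 values under alternatives, 65 lay within the interval of the reported value (for counts, within 1.5 times it) and 24 did not. No paired analysis was possible because both samples fall into a single group. With a window of 500 bp upstream there were 452 regions in place of 754, with a median percentile of 76.7 in place of 70.3 and a region in both replicates at 28.1% in place of 23.6%. With 2000 bp there were 1351 regions, with 64.8, 19.6% and 9.10% on X in place of 6.10%. With the outermost start of each gene only, 21.1% of pairs had a region in place of 23.0%. The share with a region in both replicates was 20.4% when 50% of the shorter region had to overlap and 20.2% when the point had to lie inside. TAATTA was in 4.64% of regions within 50 bp and 29.3% within 250 bp, in place of 10.2%, and median GC content was 38.6% and 35.1% in place of 36.8%. Of the regions, 4.24% were among the 250 strongest and 18% among the 1000 strongest, in place of 8.89% among the 500 strongest. The larger set takes in the smaller by construction, and the cause of the other shifts was not tested. With each replicate alone, from its own shorter list, there were 295 to 539 regions, 13.2% to 18.6% of them among the 500 strongest. Those 500 are 9.86% of the list of replicate 1 and 6.61% of that of replicate 2, in place of 3.85% of the pooled list. The median percentile was 62.3 to 64.8, X held 4.41% to 5.75%, and 8.97% to 16.6% of pairs had a region. The autosomes alone and the set without pairs holding a cytosolic ribosomal protein gene were chosen after the values were seen, and all their results were among the 65. Without the ribosomal pairs the median percentile was 69.8. Read depth, which is unknown, limits what a missing region in a replicate can show.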

Other observations

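Pairs whose genes share a symbol prefix were counted after the values above were seen. A shared prefix does not always mark a family, as with tag, lst and unc, and some symbol pairs, such as his-47/his-58, were counted more than once. Of 193 such divergent pairs, 15 had a region (7.77%, 4.42 to 12.5), set beside 23.0% of all divergent pairs. Histone genes gave 35 of these pairs, of which 2 had a region, his-62/his-61 at rank 1927 and his-41/his-35 at rank 2951. The 14 pairs of C-type lectin genes had none. Some families hold near-identical copies, in which reads cannot be placed with certainty, so a missing region there is uncertain. The strongest pair with a shared prefix was that of the small heat shock protein genes hsp-16.41 and hsp-16.2, with a pooled signal of 14.9 (rank 384). Replicate 1 had a signal of 7.25 there (rank 206) and replicate 2 had 6.11 (rank 1368), and the starts were 221 bp apart. The next were rsp-1/rsp-2, for SR splicing factors, with a signal of 10.05 (rank 1114), and ubc-21/ubc-22, for ubiquitin-conjugating enzymes, with 9.78 (rank 1202).

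The whole stretch between hsp-16.2 on the left and hsp-16.41 on the right is shown because it holds CTGCGTC 12 bases right of the point, and TATAAA on the minus strand 110 bases left of it. It lies at chrV:1804957-1805178 of WBcel235, and is given on the plus strand, 5′ to 3′, with both matches in capitals.
hsp-16.41/hsp-16.2: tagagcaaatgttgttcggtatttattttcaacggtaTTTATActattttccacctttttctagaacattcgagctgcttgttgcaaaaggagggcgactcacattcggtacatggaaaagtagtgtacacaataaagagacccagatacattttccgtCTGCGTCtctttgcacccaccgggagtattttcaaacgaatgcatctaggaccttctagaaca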
